A study of Mus musculus with 18 samples.

Results

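The genes examined here are 10 that are used to recognise large peritoneal macrophages in mice: Gata6, Prg4, Ltbp1, Selp, Timd4, Icam2, Adgre1, Alox15, Rarb and Fn1. The list was drawn up from what these cells are known to express, with earlier results of these data known, and its members were found by gene symbol among 55573 genes in an RNA-seq count table. All 10 were among the 13443 genes with enough counts to be tested. Large peritoneal macrophages are the main resident macrophages of the uninflamed mouse peritoneal cavity. They are seeded largely before birth, maintain themselves in the tissue, and are marked by high CD11b and high F4/80. Retinoic acid in the cavity induces the transcription factor GATA6, which switches on many of the genes that set these cells apart from other macrophages. During inflammation resident cells become hard to recover from lavage fluid (the macrophage disappearance reaction), while neutrophils and monocytes enter the cavity.

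The study asked how the transcription factor ZEB1 shapes the response of these macrophages to endotoxin, to endotoxin tolerance, and to Metformin, a drug that inhibits mitochondrial respiration. Zeb1∆M mice carried Zeb1 alleles flanked by loxP sites (Zeb1f/f) and the LysM Cre driver, which deletes Zeb1 in cells that have switched on Lyz2, that is in macrophages, neutrophils and some other myeloid cells. Zeb1WT mice carried the same Zeb1f/f alleles without Cre, so the floxed alleles and the C57BL/6 background were shared, whereas the Cre allele, which sits in the Lyz2 locus, was present in Zeb1∆M mice alone. Cells from peritoneal lavage were sorted on CD11b and F4/80, and the cells of 2 to 3 mice were pooled for each library. Each genotype was measured under 3 treatments with 3 libraries each: LPS + LPS (2 doses of lipopolysaccharide a day apart, the tolerance protocol), Metformin + LPS (Metformin before a single dose) and LPS (vehicle before a single dose). No group without LPS was sequenced, so every contrast below is between LPS-treated cells. The age and sex of the mice were not given in the sources used here.

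Libraries held 14053706 to 30570439 counts. Levels below are in CPM, the count of a gene scaled to a library of fixed size with TMM factors, given in the order of replicates 1, 2 and 3. Zeb1 itself was lower in Zeb1∆M in LPS (log2 fold change -1.60, edgeR adjusted p = 0.0305) and in Metformin + LPS (-1.55, adjusted p = 0.0123). In LPS + LPS Zeb1 was low in both genotypes, with 0.738, 0.926 and 0.758 CPM in Zeb1∆M (16 to 22 counts) against 0.912, 2.52 and 1.07 CPM in Zeb1WT (25 to 66 counts). The difference did not pass (-0.88, adjusted p = 0.352), so that there the labels could not be checked by this gene. Replicate 1 of Zeb1WT LPS + LPS stood apart from its 2 partners in neutrophil markers: its summed level of 12 such genes was 1078 CPM, against 4339 and 3348 CPM in replicates 2 and 3. Its mean correlation with the libraries of its own group did not set it apart (0.944, against 0.948 and 0.945 for replicates 2 and 3). Where leaving replicate 1 out changed a call given here for the 10 genes or for a list, the result without it is given. The same holds where it turned a direction or moved a value of the 10 genes in LPS + LPS by over 1.5 times. All Metformin + LPS libraries have another prefix in their library codes than the other groups, so Metformin and that prefix cannot be told apart. In bulk RNA, fewer large peritoneal macrophages among the sorted cells and less RNA of a gene per cell cannot be told apart either.

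The sorted cells carried the macrophage label in their RNA. Adgre1, which encodes F4/80, ranged over the 18 libraries from 1738 to 4938 CPM, and Itgam, which encodes CD11b, averaged 693 to 2109 CPM over the 6 groups. The sort used both proteins, so that these levels are no finding. Summed over the 10 genes, the level was 8286 to 13051 CPM in Zeb1∆M LPS + LPS, 3853 to 6646 CPM in Zeb1WT LPS + LPS, 23936 to 32345 CPM in Zeb1∆M Metformin + LPS, 24456 to 36609 CPM in Zeb1WT Metformin + LPS, 23846 to 30895 CPM in Zeb1∆M LPS and 18464 to 24463 CPM in Zeb1WT LPS. Both LPS + LPS groups thus lay below all other libraries. The sums of the 2 genotypes did not overlap in LPS + LPS and overlapped under the other treatments.

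**Figure D1:**
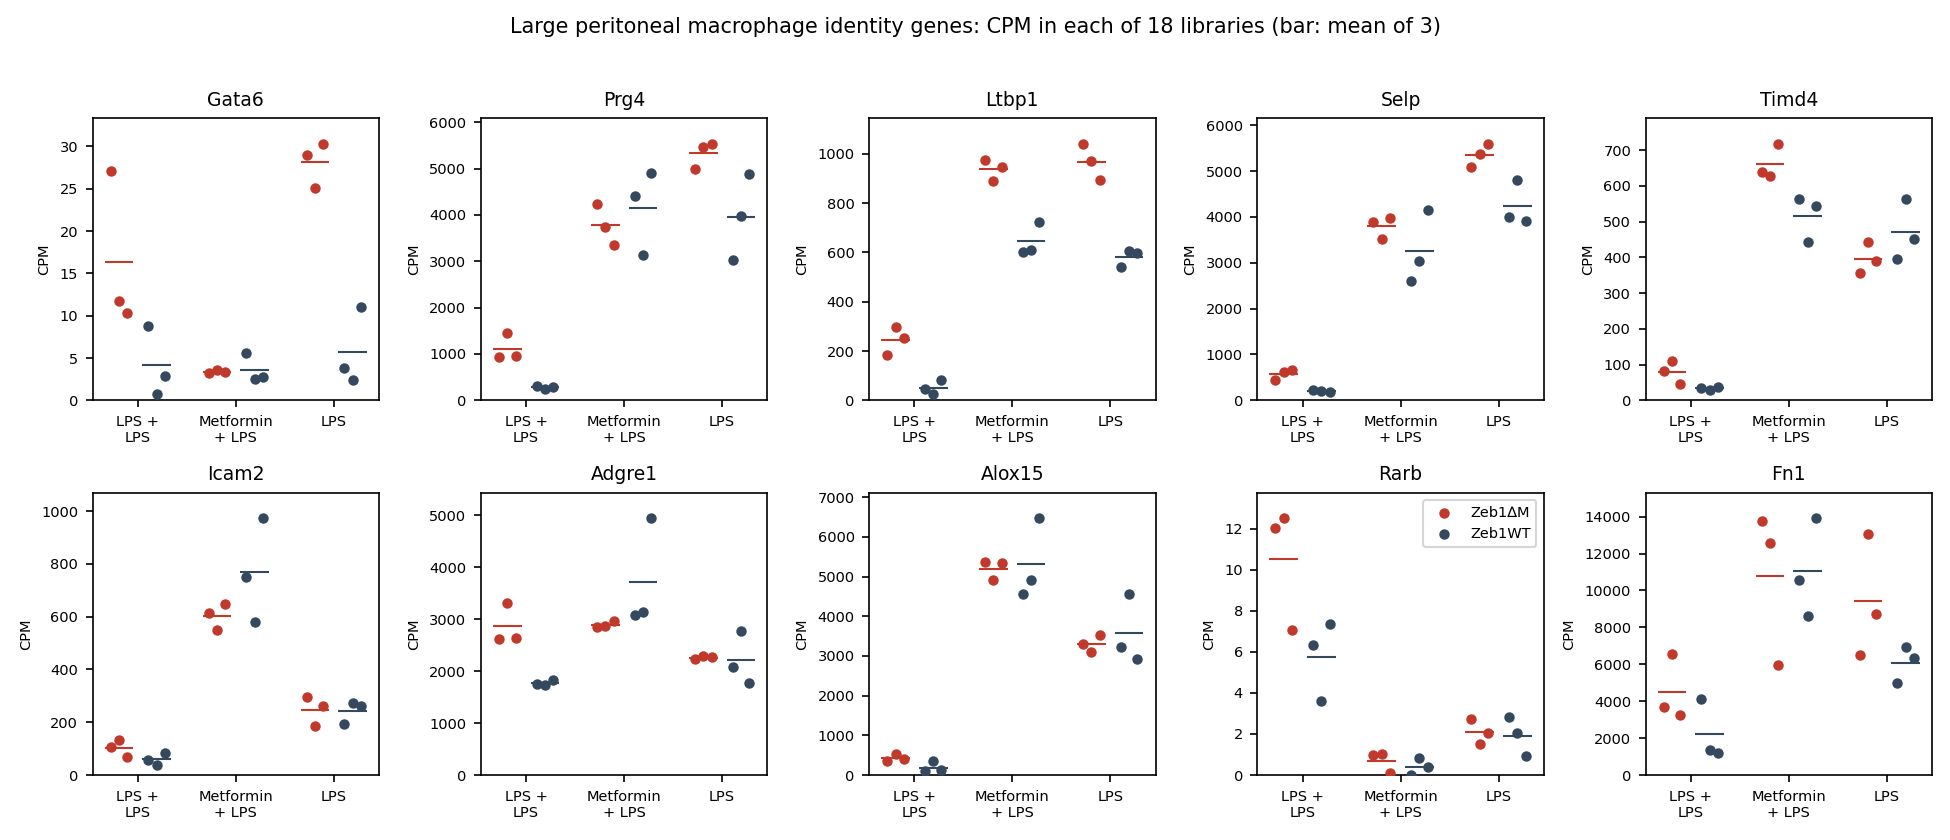
Level of each of the 10 large peritoneal macrophage genes in every library, in TMM-scaled CPM on a linear axis from 0, by treatment and genotype (points, 3 libraries per group; bars, group means). Most genes lie lowest in LPS + LPS, where the Zeb1∆M libraries of Prg4, Ltbp1, Selp and Timd4 all sit above the Zeb1WT ones, while Rarb is highest there and Gata6 is high in Zeb1∆M LPS.

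Gata6 and Rarb are the regulators of the group. Rarb (ENSMUSG00000017491.9, chr14:16430839-16819156, minus strand) encodes retinoic acid receptor beta. It is a known target of retinoic acid itself, through a response element at its own promoter made of a pair of 6-base sites in the same direction with 5 bases between them. The start-site window of Rarb in RefSeq (GRCm38.p6, chr14:16575427-16575726, minus strand, 250 bases before to 50 after the start) is shown because it holds this arrangement. The capitals mark both sites of the pair, the first of which begins at position -53 from the start:
Rarb: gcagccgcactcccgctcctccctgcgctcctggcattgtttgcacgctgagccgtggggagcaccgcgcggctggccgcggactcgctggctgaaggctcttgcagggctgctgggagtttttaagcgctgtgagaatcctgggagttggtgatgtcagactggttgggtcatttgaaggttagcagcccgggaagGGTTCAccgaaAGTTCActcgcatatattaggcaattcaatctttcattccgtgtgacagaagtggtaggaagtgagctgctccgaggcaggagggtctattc
The strict form of the repeat, AGGTCA on both sides of 5 bases, was in 0.00913% of 32851 RefSeq windows of this length and not in that of Rarb. A relaxed form, which allows the letters seen here and was defined after the sequence had been looked at, was in 0.0974% of the windows. Both strands were searched, and a match is a description of the letters only.

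Rarb was the only gene of the 10 with its highest group mean in LPS + LPS. It had 12.0, 12.5 and 7.05 CPM in Zeb1∆M LPS + LPS against 2.75, 1.53 and 2.04 CPM in Zeb1∆M LPS, and rose by 2.33 ± 0.64 (adjusted p = 0.00881). In Zeb1WT the values were 6.35, 3.59 and 7.37 CPM in LPS + LPS against 2.82, 2.03 and 0.909 CPM in LPS, a difference of 1.57 ± 0.62 (adjusted p = 0.0556) that passed without replicate 2 of LPS + LPS (1.82, adjusted p = 0.0449). No LPS + LPS library overlapped an LPS library of the same genotype. In Metformin + LPS it was close to undetected, at 0.964, 1.00 and 0.0944 CPM in Zeb1∆M and at 0, 0.832 and 0.387 CPM in Zeb1WT. The library at 0 allows a level of up to 0.285 CPM (3 counts, counting error only). Relative to LPS the log2 fold change was -1.61 ± 0.68 in Zeb1∆M (adjusted p = 0.0885), and Rarb fell in Zeb1WT (-2.07 ± 0.72, adjusted p = 0.0429). The call was lost without replicate 1 or 2 of Zeb1WT LPS and without replicate 1 or 3 of Zeb1WT Metformin + LPS (adjusted p = 0.149, 0.0859, 0.128 and 0.120). No genotype difference of Rarb passed (log2 fold changes 0.87 in LPS + LPS, 0.57 in Metformin + LPS and 0.11 in LPS).

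Gata6 (ENSMUSG00000005836.10, GRCm38 chr18:11052064-11085635, plus strand) encodes the zinc finger factor that directs the large peritoneal macrophage programme. Its transcript level was low, at most 4.32 CPM per kb of exon in any group mean. In LPS it stood at 29.0, 25.1 and 30.3 CPM in Zeb1∆M against 3.85, 2.38 and 11.0 CPM in Zeb1WT, from 390 to 595 counts and 47 to 181 counts. The 2 genotypes did not overlap there, although the difference, 2.30 ± 0.64 (SE) on the log2 scale, missed the threshold (adjusted p = 0.0936). Without replicate 3 of Zeb1WT LPS, the library with 11.0 CPM, it was 3.17 and passed (adjusted p = 0.0300). In LPS + LPS Gata6 had 27.1, 11.7 and 10.4 CPM in Zeb1∆M against 8.75, 0.802 and 2.82 CPM in Zeb1WT. Again no libraries overlapped, with one high library in each genotype, and the difference of 1.99 ± 0.63 did not pass (adjusted p = 0.170). Leaving out replicate 1 of Zeb1WT LPS + LPS, whose level of 8.75 CPM was the highest of its group, raised it to 3.17, and it passed (adjusted p = 0.0135). In Metformin + LPS, by contrast, Gata6 was at 3.19, 3.53 and 3.31 CPM in Zeb1∆M and at 5.61, 2.50 and 2.71 CPM in Zeb1WT, with overlapping libraries (-0.08 ± 0.65, adjusted p = 0.966). Averaged over the 3 treatments Gata6 was higher in Zeb1∆M by 1.40 ± 0.37 (adjusted p = 0.0189).

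Prg4, Ltbp1 and Fn1 encode proteins that are secreted or laid down in the extracellular matrix. Prg4 (ENSMUSG00000006014.16, chr1:150449412-150466165, minus strand) encodes proteoglycan 4, or lubricin, which coats surfaces and eases their sliding. In LPS + LPS it had 926, 1445 and 949 CPM in Zeb1∆M against 313, 251 and 298 CPM in Zeb1WT. The lowest Zeb1∆M library was well above the highest Zeb1WT one, and Prg4 was higher in Zeb1∆M than in Zeb1WT by 1.95 ± 0.24 (adjusted p = 0.000822). The same gene had 4994, 5457 and 5535 CPM in Zeb1∆M LPS against 3031, 3972 and 4883 CPM in Zeb1WT LPS, groups that only just failed to overlap (0.43 ± 0.24, adjusted p = 0.434). In Metformin + LPS its libraries overlapped, at 4235, 3731 and 3358 CPM in Zeb1∆M and 4407, 3133 and 4909 CPM in Zeb1WT (-0.14 ± 0.23, adjusted p = 0.800).

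Ltbp1 (ENSMUSG00000001870.16, chr17:75005568-75392512, plus strand) encodes latent transforming growth factor beta binding protein 1, which tethers the latent growth factor to the matrix. It was at 182, 296 and 254 CPM in Zeb1∆M LPS + LPS against 45.5, 27.3 and 81.3 CPM in Zeb1WT LPS + LPS. This was the largest genotype difference among the 10 genes in LPS + LPS (2.25 ± 0.29, adjusted p = 0.000846). Ltbp1 was also the gene whose Zeb1∆M libraries all lay above the Zeb1WT ones under every treatment. It had 975, 891 and 946 CPM in Zeb1∆M against 602, 608 and 725 CPM in Zeb1WT in Metformin + LPS, and 1041, 972 and 894 CPM in Zeb1∆M against 541, 604 and 597 CPM in Zeb1WT in LPS. Neither of these differences passed by itself (0.54 ± 0.27, adjusted p = 0.279, and 0.74 ± 0.27, adjusted p = 0.227), whereas the average over treatments did (1.17 ± 0.16, adjusted p = 0.000216).

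Fn1 (ENSMUSG00000026193.15, chr1:71585520-71653200, minus strand) encodes fibronectin and varied widely between libraries of the same group. In LPS + LPS it had 3702, 6579 and 3241 CPM in Zeb1∆M against 4128, 1352 and 1209 CPM in Zeb1WT, with replicate 1 of Zeb1WT inside the range of Zeb1∆M. The difference was 1.02 ± 0.44 and did not pass (adjusted p = 0.362). Without that library it was 1.82 and passed (adjusted p = 0.0221). For Fn1 no pair of neighbouring groups in the order of its 6 group means was free of overlap.

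Selp, Timd4, Icam2 and Adgre1 encode proteins of the cell surface. Selp (ENSMUSG00000026580.16, chr1:164115264-164150026, plus strand) encodes P-selectin, an adhesion molecule better known from platelets and endothelium. Timd4 (ENSMUSG00000055546.6, chr11:46810800-46844332, plus strand) encodes TIM-4, a receptor for phosphatidylserine with which resident macrophages bind dying cells. RefSeq windows of the same length were at hand for Selp, Timd4, Ltbp1 and Rarb, and those of Selp and Timd4 are shown because both genes differed between genotypes in LPS + LPS and their windows hold sites of the kinds searched. In Selp (GRCm38.p6, chr1:164115014-164115313, plus strand) the capitals mark an E-box CACCTG, the class of site that ZEB1 is known to bind, at position -132, and on the other strand, at position -93, a copy of AGGTCA, the single site on which pairs for nuclear receptors are built. In Timd4 (chr11:46810549-46810848, plus strand) they mark AGGTCA at position -116:
Selp: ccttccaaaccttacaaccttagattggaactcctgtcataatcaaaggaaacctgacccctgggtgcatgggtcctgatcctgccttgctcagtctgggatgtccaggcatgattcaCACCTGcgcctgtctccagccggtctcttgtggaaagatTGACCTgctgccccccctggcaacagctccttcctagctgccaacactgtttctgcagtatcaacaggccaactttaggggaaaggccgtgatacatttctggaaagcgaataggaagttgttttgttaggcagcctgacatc
Timd4: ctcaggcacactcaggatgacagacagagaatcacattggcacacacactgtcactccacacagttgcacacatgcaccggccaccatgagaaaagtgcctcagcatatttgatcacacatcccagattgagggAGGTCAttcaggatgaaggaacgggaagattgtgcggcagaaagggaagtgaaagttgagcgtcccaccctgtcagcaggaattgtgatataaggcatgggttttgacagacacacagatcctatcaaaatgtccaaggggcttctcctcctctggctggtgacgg
An E-box with these letters was in 20.2% and AGGTCA in 16.3% of all 32851 windows, both strands searched, so either is common. The core of a GATA site, AGATAA, was in 11.2% of the windows and in none of the 5 windows of these 4 genes, and the 2 windows of Ltbp1 held none of the motifs searched.

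In LPS + LPS Selp had 444, 609 and 671 CPM in Zeb1∆M against 216, 203 and 178 CPM in Zeb1WT, with no overlap, and was higher in Zeb1∆M by 1.53 ± 0.21 (adjusted p = 0.00138). Of the 6 genes of a platelet list, Pf4 made up most of the sum, at 207 to 223 CPM in Zeb1∆M against 125 to 139 CPM in Zeb1WT (0.69 ± 0.33, adjusted p = 0.424), while Gp9 and Treml1 were at 0 in all 6 of these libraries. Itga2b and Ppbp went the other way, without passing (log2 fold changes -3.01 and -1.13, edgeR adjusted p = 0.278 and 0.765). Of the 6 endothelial genes Pecam1, which leukocytes also express, had 9.85 to 15.8 CPM in Zeb1∆M against 17.5 to 24.9 CPM in Zeb1WT, and Cldn5 was at 0. The part of platelets or endothelium in the level of Selp was not tested. In LPS Selp had 5093, 5382 and 5595 CPM in Zeb1∆M against 3993, 4800 and 3919 CPM in Zeb1WT (0.34 ± 0.21, adjusted p = 0.501). Timd4 had 83.2, 111 and 47.0 CPM in Zeb1∆M LPS + LPS against 35.4, 29.8 and 37.3 CPM in Zeb1WT LPS + LPS. It was higher in Zeb1∆M by 1.23 ± 0.24 (adjusted p = 0.0211), but this call was lost without replicate 2 of Zeb1WT (adjusted p = 0.0908) and without replicate 1 or 2 of Zeb1∆M (adjusted p = 0.0580 and 0.161). In LPS Timd4 overlapped between genotypes, at 355, 442 and 389 CPM in Zeb1∆M and 396, 563 and 451 CPM in Zeb1WT (-0.25 ± 0.24, adjusted p = 0.702).

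Icam2 (ENSMUSG00000001029.15, chr11:106377656-106388075, minus strand) encodes an intercellular adhesion molecule and is used together with F4/80 to gate large peritoneal macrophages. Its LPS + LPS libraries overlapped between genotypes, at 106, 132 and 70.0 CPM in Zeb1∆M against 58.3, 38.0 and 81.8 CPM in Zeb1WT (0.79 ± 0.28, adjusted p = 0.249). Adgre1 (ENSMUSG00000004730.15, chr17:57358691-57483527, plus strand), the F4/80 gene of the sort, had 2625, 3316 and 2643 CPM in Zeb1∆M LPS + LPS against 1743, 1738 and 1828 CPM in Zeb1WT LPS + LPS. These libraries did not overlap, but the difference, 0.69 ± 0.21, did not pass (adjusted p = 0.158). Alox15 (ENSMUSG00000018924.6, chr11:70344152-70352031, minus strand) encodes 12/15-lipoxygenase, an enzyme that oxidises polyunsaturated fatty acids and is characteristic of resident peritoneal macrophages. It had 345, 539 and 393 CPM in Zeb1∆M LPS + LPS against 92.2, 345 and 130 CPM in Zeb1WT LPS + LPS (1.17 ± 0.35, adjusted p = 0.148). The groups all but met at 345 CPM, the highest Zeb1WT and the lowest Zeb1∆M library. Without that Zeb1WT library, replicate 2, the difference was 1.94 and passed (adjusted p = 0.00535).

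Counted together, 4 of the 10 genes passed the edgeR test as higher in Zeb1∆M in LPS + LPS (Prg4, Ltbp1, Selp and Timd4) and none as lower, where 0.461% of all genes tested were called higher and 0.216% lower. The median log2 fold change of the 10 was 1.20, against -0.02 over all genes, and all 10 values were above 0. For 7 of them every Zeb1∆M library lay above every Zeb1WT one, which held for 9.07% of all genes in this direction and 8.79% in the other. Without replicate 1 of Zeb1WT LPS + LPS 6 genes passed, Gata6 and Fn1 joining the other 4, and calls rose over all genes too, to 1.47% higher and 1.38% lower. In a fit of the 6 LPS + LPS libraries alone, which has fewer libraries to estimate the spread, edgeR called none of all genes (1438 had an unadjusted p under 0.05, among them 9 of the 10) and Prg4, Ltbp1, Selp and Timd4 had adjusted p-values of 0.101, 0.126, 0.124 and 0.227 at nearly the same fold changes. DESeq2 on all libraries called 7 of the 10.

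**Figure D2:**
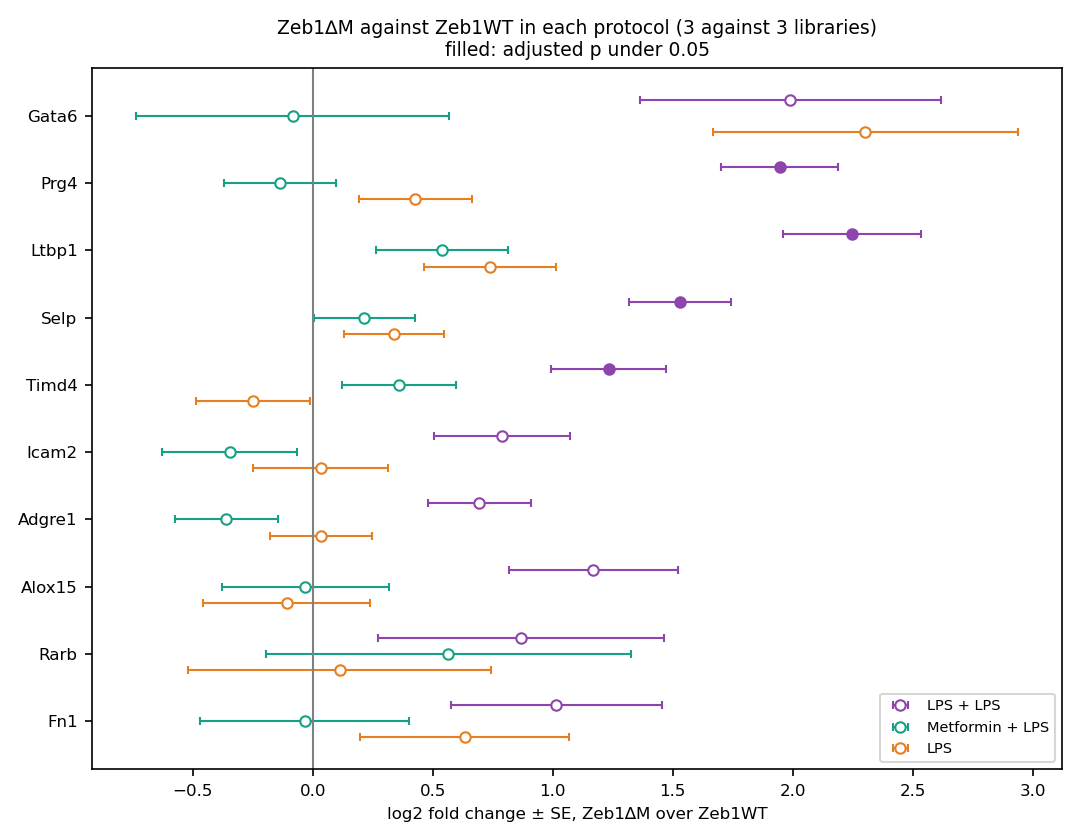
Log2 fold change of Zeb1∆M over Zeb1WT for the 10 genes in LPS + LPS, Metformin + LPS and LPS, with bars of 1 SE either way and filled points for an edgeR adjusted p under 0.05. In LPS + LPS all 10 lie above 0 with a median of 1.20, in Metformin + LPS they scatter about 0, and in LPS Gata6 stands apart at 2.30 without passing.

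In LPS none of the 10 genes passed as higher or lower in Zeb1∆M, where 0.208% of all genes were called higher and 0.937% lower. Gata6 and Ltbp1, 2 of the 10, had an unadjusted p under 0.05, against 1844 of all 13443 genes, and DESeq2 called 1, Gata6 (2.26, adjusted p = 0.0103). The median over the 10 was 0.22, against 0.01 over all genes. Libraries did not overlap for 4 genes, Gata6, Prg4, Ltbp1 and Selp, all higher in Zeb1∆M, as for 10.1% of all genes (10.8% in the other direction). In Metformin + LPS none of the 10 passed in either direction by edgeR or DESeq2, and none had an unadjusted p under 0.05, where 1.26% of all genes were called higher and 4.61% lower in Zeb1∆M. The median was -0.03, against 0.03 over all genes. Libraries did not overlap for Ltbp1 and Timd4, which were higher in Zeb1∆M (as 11.5% of all genes), and for Adgre1, which was lower (as 12.9%). Averaged over the 3 treatments 5 of the 10, Gata6, Prg4, Ltbp1, Selp and Timd4, were called higher in Zeb1∆M and none lower, where 3.43% of all genes were called higher and 6.89% lower. Prg4, Ltbp1, Selp and Gata6 passed whichever library was left out, whereas Timd4 (0.45 ± 0.14, adjusted p = 0.0441) lost its call in 13 of 18 such fits. Without replicate 1 of Zeb1WT LPS + LPS Fn1 passed as well (0.81, adjusted p = 0.0158).

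Set against a single dose, 2 doses of LPS lowered most of the 10 genes in both genotypes. In Zeb1∆M 6 fell and 1, Rarb, rose, where 16.9% of all genes fell and 15.8% rose. In Zeb1WT 7 fell and none rose, where 18% of all genes fell and 18.6% rose. The largest falls in Zeb1∆M were those of Selp (-3.22 ± 0.23, adjusted p = 1.41e-08), Alox15 (-2.96 ± 0.38), Timd4 (-2.30 ± 0.25), Prg4 (-2.27 ± 0.25) and Ltbp1 (-1.99 ± 0.28). In Zeb1WT the same 5 genes led, with Selp at -4.41 ± 0.24 (adjusted p = 5.25e-10), Alox15 at -4.24 ± 0.40, Prg4 at -3.79 ± 0.26, Timd4 at -3.78 ± 0.26 and Ltbp1 at -3.50 ± 0.30. Alox15, for instance, had 345, 539 and 393 CPM in Zeb1∆M LPS + LPS against 3308, 3105 and 3527 CPM in Zeb1∆M LPS. Icam2 fell less, by 1.27 on the log2 scale in Zeb1∆M (adjusted p = 0.00212) and by 2.03 in Zeb1WT (adjusted p = 2.72e-05), at 297, 186 and 261 CPM in Zeb1∆M LPS and 192, 275 and 260 CPM in Zeb1WT LPS. Fn1 passed in Zeb1WT (-1.45 ± 0.44, adjusted p = 0.0155) but not in Zeb1∆M (-1.07 ± 0.44, adjusted p = 0.0713), and the difference between these 2 values was 0.38 ± 0.61 (adjusted p = 0.959). The call in Zeb1WT was lost in 3 of 6 fits that left out 1 library (without replicate 2 of LPS and without replicates 2 or 3 of LPS + LPS, adjusted p = 0.0531, 0.0713 and 0.0720), it was -2.25 without replicate 1 of LPS + LPS, and the value in Zeb1∆M passed without replicate 2 of LPS + LPS (-1.44, adjusted p = 0.0410). Gata6 did not pass in either genotype (-0.78 ± 0.60 in Zeb1∆M and -0.47 ± 0.62 in Zeb1WT). In Zeb1WT it did so without replicate 1 of LPS + LPS (-1.63, adjusted p = 0.0458). Adgre1, the gene of the sort marker, did not pass either (0.34 ± 0.21 in Zeb1∆M and -0.32 ± 0.21 in Zeb1WT). Markers of other cells changed as well. Of 12 neutrophil genes 7 rose and 1 fell in Zeb1∆M, and 6 rose and none fell in Zeb1WT, among them S100a8, a subunit of calprotectin (4.13 in Zeb1∆M and 2.98 in Zeb1WT). Of 12 genes of monocytes and small peritoneal macrophages 4 rose and 3 fell in Zeb1∆M, and 3 rose and 3 fell in Zeb1WT. Ccr2, the receptor that draws monocytes out of the marrow, rose by 3.86 in Zeb1∆M and by 3.39 in Zeb1WT. Others of this list fell, among them Cd226 (-2.07 in Zeb1∆M and -2.06 in Zeb1WT) and Plac8 (-1.83 and -1.70). Irf4 changed by -4.76 in Zeb1WT, so the list had no common direction. The summed level of 8 genes common to all macrophages was 5986 to 7038 CPM in Zeb1∆M LPS + LPS against 9214 to 18255 CPM in Zeb1∆M LPS, and 5165 to 8397 CPM in Zeb1WT LPS + LPS against 13658 to 17467 CPM in Zeb1WT LPS. Of these 8 genes 4 rose and 2 fell in Zeb1∆M, and 1 rose and 2 fell in Zeb1WT (0 and 2 without replicate 1 of Zeb1WT LPS + LPS). The 2 that fell were Fcgr1 (-3.01 in Zeb1∆M and -2.68 in Zeb1WT) and Cd14 (-1.65 and -1.69). A sum follows its most abundant genes, so the lower sum need not hold for the list. The part of these cells in the falls of the 10 genes was not tested.

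**Figure D3:**
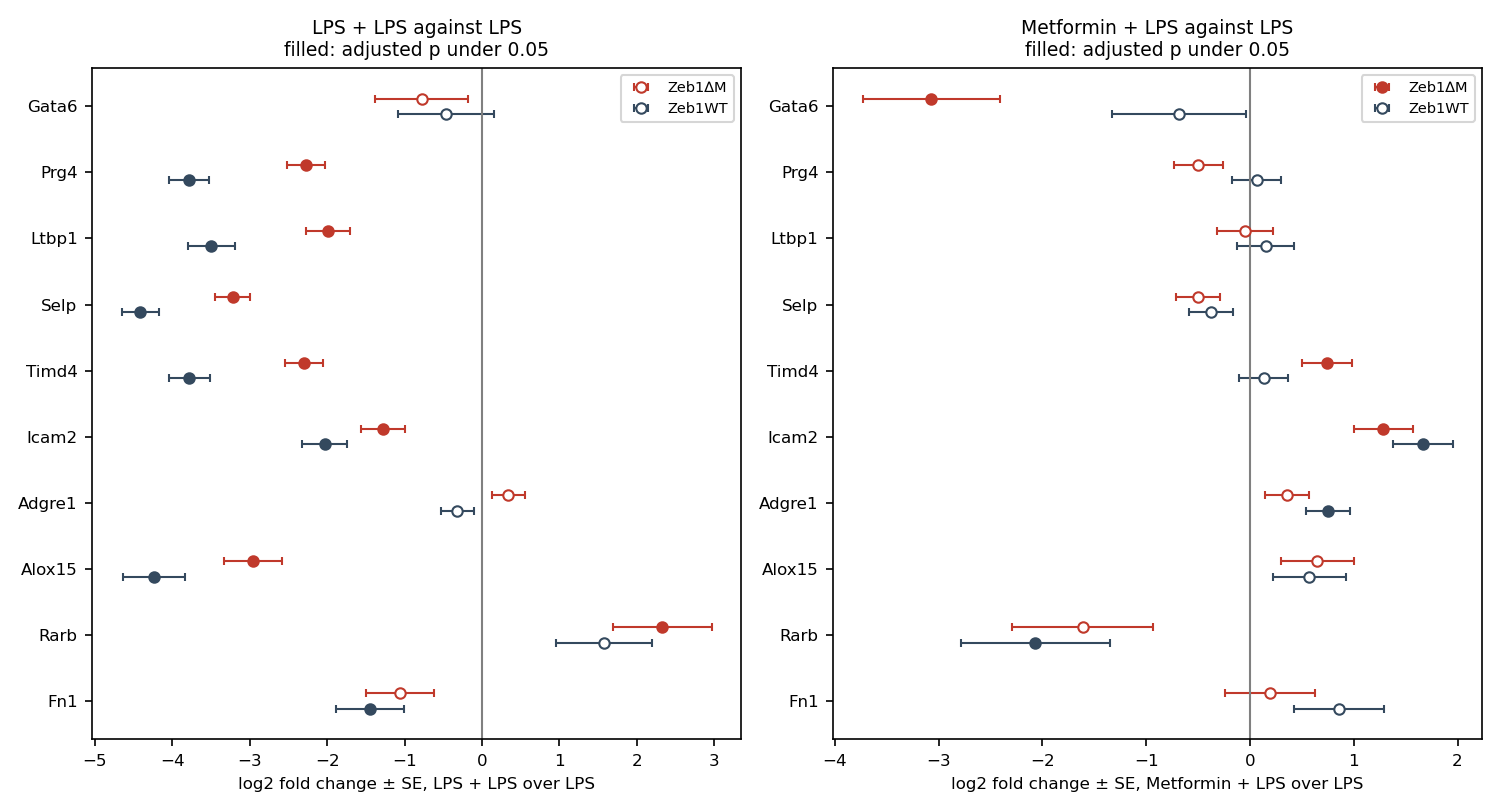
Log2 fold change of the 10 genes in LPS + LPS over LPS and in Metformin + LPS over LPS, within Zeb1∆M and within Zeb1WT, with bars of 1 SE either way and filled points for an edgeR adjusted p under 0.05. Selp, Prg4, Timd4, Ltbp1 and Alox15 lie between -4.41 and -1.99 in LPS + LPS, and Rarb lies above 0.

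Whether the fall differed between genotypes was tested by the interaction of genotype and treatment. It was above 0 for 9 of the 10 genes, all but Gata6, that is the log2 fold change of LPS + LPS over LPS was higher in Zeb1∆M (for Rarb a larger rise), with a median of 0.97 against -0.05 over all genes. The estimate was 1.52 ± 0.33 for Prg4 (adjusted p = 0.115), 1.51 ± 0.39 for Ltbp1 (adjusted p = 0.242), 1.48 ± 0.34 for Timd4 (adjusted p = 0.119) and 1.19 ± 0.30 for Selp (adjusted p = 0.187). None of the 10 was called by edgeR, nor was any gene of the table (0% called), while 6 of the 10 and 939 of all genes had an unadjusted p under 0.05. DESeq2 called 74 genes, among them 4 of the 10: Prg4 (1.54, adjusted p = 0.00119), Selp (adjusted p = 0.00482), Timd4 (adjusted p = 0.00659) and Ltbp1 (adjusted p = 0.0326). The call of a genotype-dependent fall thus depended on the tool, and on the filter on low counts, without which edgeR called 4 of the 10. Without replicate 1 of Zeb1WT LPS + LPS the estimates were 1.59 for Prg4, 1.43 for Ltbp1, 1.51 for Timd4 and 1.26 for Selp, that of Fn1 went to 1.19 (0.38 with it) and that of Gata6 turned to 0.86 (-0.31 with it), and none of the 10 passed. Ltbp1 passed without replicate 3 of Zeb1WT LPS + LPS (2.01, adjusted p = 0.0364).

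With Metformin before LPS fewer of the 10 genes passed the test than with 2 doses. In Zeb1∆M 2 rose and 1 fell relative to LPS, where 12.6% of all genes rose and 13.6% fell. In Zeb1WT 2 rose and 1 fell as well, where 13% of all genes rose and 12.3% fell. Icam2 rose in both genotypes, with 615, 550 and 647 CPM in Zeb1∆M Metformin + LPS (1.29 ± 0.28 over LPS, adjusted p = 0.00332) and 752, 580 and 972 CPM in Zeb1WT Metformin + LPS (1.66 ± 0.29, adjusted p = 0.000484). These libraries did not overlap those of LPS, and both calls held when any library was left out. Timd4 rose in Zeb1∆M, at 639, 629 and 718 CPM (0.74 ± 0.24, adjusted p = 0.0280), a call that 5 of the 6 leave-one-out fits did not give (all except the fit without replicate 2 of LPS, with adjusted p up to 0.0972). Adgre1 rose in Zeb1WT, at 3077, 3140 and 4938 CPM (0.75 ± 0.21, adjusted p = 0.0155). That call was lost without replicate 1 or 3 of LPS and without replicate 3 of Metformin + LPS, the library at 4938 CPM (adjusted p = 0.0640, 0.0845 and 0.0605). Gata6 fell in Zeb1∆M (-3.07 ± 0.66, adjusted p = 0.00272), where its Metformin + LPS libraries at 3.19 to 3.53 CPM all lay below the LPS libraries. In Zeb1WT the value was -0.68 ± 0.64 (adjusted p = 0.473). The interaction of genotype and Metformin for Gata6 was -2.39 ± 0.90, with an unadjusted p of 0.0164 and an adjusted p of 0.260. It was the only gene of the 10 with an unadjusted p under 0.05 there. None of the 10 was called by edgeR or DESeq2 for this interaction, where 0.156% of all genes were called in either direction by edgeR.

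In the order of group means, Zeb1WT LPS + LPS was lowest for 8 of the 10 genes, all but Gata6, which was lowest in Zeb1∆M Metformin + LPS, and Rarb, which was lowest in Zeb1WT Metformin + LPS. The highest group was Zeb1∆M LPS for Gata6, Prg4, Ltbp1 and Selp, Zeb1WT Metformin + LPS for Icam2, Adgre1, Alox15 and Fn1, Zeb1∆M Metformin + LPS for Timd4 and Zeb1∆M LPS + LPS for Rarb. The ratio of the highest to the lowest group mean was 28.1 for Alox15, 26.9 for Selp, 25.9 for Rarb, 19.4 for Timd4, 18.9 for Ltbp1, 18.6 for Prg4, 12.9 for Icam2, 8.42 for Gata6, 4.95 for Fn1 and 2.10 for Adgre1. Of the 50 pairs of neighbours in these orders 30 overlapped in their libraries, including all pairs of Gata6. Prg4, Ltbp1, Selp, Timd4 and Alox15 shared the lower end of the order, with Zeb1∆M LPS + LPS next to last and free of overlap both with the group above it and with Zeb1WT LPS + LPS below it. Per kb of exon, Alox15 led the 10 genes in the Metformin + LPS groups (2118 CPM per kb in Zeb1∆M and 2164 in Zeb1WT) and in the LPS groups (1350 in Zeb1∆M and 1456 in Zeb1WT), and Adgre1 in the LPS + LPS groups (884 in Zeb1∆M and 546 in Zeb1WT).

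The 10 genes did not move as a single block. Over the 18 libraries the Pearson correlation of log2 CPM between pairs of them had a median of 0.614 over 45 pairs and ran from -0.814 to 0.977 (Prg4 with Selp). Once the group means had been subtracted, the median was 0.226 and 33 of 45 pairs were positive, with a range from -0.856 (Gata6 with Alox15) to 0.681 (Selp with Adgre1). These values describe libraries that share groups and scaling factors. Among all genes of sufficient level, those most like Prg4 over the 18 libraries were Selp (r = 0.977) and C4b (0.974), most like Ltbp1 Slc7a2 (0.982), most like Selp Asb13 (0.988), most like Timd4 Plxdc2 (0.979), most like Alox15 Thbs1 (0.989), most like Icam2 Ergic3 (0.962), most like Rarb Thap11 (0.959), most like Fn1 Sipa1l1 (0.930), most like Gata6 Eif3b (0.915) and most like Adgre1 Itgb2 (0.882). To the mean of the 10 genes Slc7a2 (0.975) and Plxdc2 (0.955) were closest.

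Other genes of the large peritoneal macrophage programme, a list of 20 that were all tested, gave a similar picture by count. In LPS + LPS 6 of 20 were called higher in Zeb1∆M and none lower, with 18 above 0 and a median of 0.96 (5 called without replicate 1 of Zeb1WT LPS + LPS), where 0.461% of all genes were called higher. They included Aspa, an aspartoacylase (1.75 ± 0.21, adjusted p = 0.000822), C4b, a complement component (2.01 ± 0.31, adjusted p = 0.00360), Garnl3 (2.01 ± 0.32, adjusted p = 0.00436) and Itga6, an integrin (1.46 ± 0.26, adjusted p = 0.0111). In Metformin + LPS 2 were called higher in Zeb1∆M, Tgfb2 (1.15) and Garnl3 (1.02, edgeR adjusted p = 0.0491), and 1, the coagulation factor gene F10, lower (-0.85). Of all genes 1.26% were called higher and 4.61% lower there. Over fits that left out 1 library in turn, 0 to 3 of the 20 were called in Metformin + LPS and 3 to 6 in LPS + LPS. In LPS none was called by edgeR (4 had an unadjusted p under 0.05, and DESeq2 called 2), at a median of 0.11. Relative to LPS, LPS + LPS lowered 9 and raised 4 of the 20 in Zeb1∆M, and lowered 12 and raised 2 in Zeb1WT (of all genes, 16.9% fell and 15.8% rose in Zeb1∆M, and 18% fell and 18.6% rose in Zeb1WT). C4b, for one, changed by -2.74 in Zeb1∆M and by -4.64 in Zeb1WT, and Thbs1, which encodes thrombospondin 1, by -2.72 and by -4.00 in the same 2 genotypes. Metformin + LPS raised 6 and lowered 3 of them in Zeb1∆M, and raised 6 and lowered 2 in Zeb1WT, where 12.6% of all genes rose and 13.6% fell in Zeb1∆M, and 13% rose and 12.3% fell in Zeb1WT.

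Of 20 genes of retinoic acid supply, binding, breakdown and receptors, 13 were tested. Between genotypes none was called by edgeR in LPS + LPS (2 had an unadjusted p under 0.05, and DESeq2 called 1) or in LPS (3 and none). In Metformin + LPS 1 was, Aldh1a2, the main retinoic acid producing dehydrogenase, which was lower in Zeb1∆M (-0.81 ± 0.18, adjusted p = 0.0138). Without replicate 1 of Zeb1WT LPS + LPS Cyp26a1, an enzyme that degrades retinoic acid, was called lower in LPS + LPS. With 2 doses of LPS Aldh1a2 changed by -3.18 ± 0.20 in Zeb1∆M and -3.78 ± 0.21 in Zeb1WT, and Rdh10, which makes retinaldehyde from retinol, by -2.73 in Zeb1∆M and -2.20 in Zeb1WT. Dhrs3, which turns retinaldehyde back to retinol, rose by 3.36 ± 0.40 in Zeb1∆M and 4.10 ± 0.41 in Zeb1WT. In all, 3 rose and 2 fell in Zeb1∆M, and 3 rose and 3 fell in Zeb1WT, shares near those of all genes (15.8% rose and 16.9% fell in Zeb1∆M, and 18.6% rose and 18% fell in Zeb1WT). In Zeb1WT 4 rose and 4 fell without replicate 1 of LPS + LPS, where 16.2% of all genes rose and 17.3% fell. With Metformin none rose, while 4 of the 13 fell in Zeb1∆M and 2 in Zeb1WT (13.6% and 12.3% of all genes), Cyp26a1 in both (-3.04 in Zeb1∆M and -2.98 in Zeb1WT).

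Markers of other cells moved with genotype beside these results. Of 12 neutrophil genes edgeR called none between genotypes in LPS + LPS (9 had an unadjusted p under 0.05, and DESeq2 called 3), but all 12 were below 0 (median log2 fold change -1.60), with a summed level of 1282, 917 and 1615 CPM in Zeb1∆M against 1078, 4339 and 3348 CPM in Zeb1WT. Of 12 genes of monocytes and small peritoneal macrophages 11 were below 0 (median -0.81, with none called by edgeR, 5 at an unadjusted p under 0.05 and 1 called by DESeq2), with 4760 to 6481 CPM in Zeb1∆M against 4726 to 10509 CPM in Zeb1WT. Of 8 eosinophil genes 6 were tested. All 6 were below 0 in LPS + LPS (median -3.03, none called by edgeR, 6 at an unadjusted p under 0.05 and 4 called by DESeq2), with a summed level of 13.6 to 27.8 CPM in Zeb1∆M against 47.5 to 338 CPM in Zeb1WT and no overlap. Without replicate 1 of Zeb1WT LPS + LPS 4 neutrophil, 1 monocyte and 4 eosinophil genes were called lower in Zeb1∆M, where 1.38% of all genes were. In LPS 4 neutrophil genes and 3 monocyte genes were lower in Zeb1∆M, and in Metformin + LPS, where none of the 10 macrophage genes passed, 7 and 8 were. Of all genes 0.937% were called lower in LPS and 4.61% in Metformin + LPS, so more calls were made under Metformin in general. The medians of these lists under Metformin + LPS were -3.37 and -1.83, and the neutrophil sums were 428 to 506 CPM in Zeb1∆M against 520 to 613 CPM in Zeb1WT. A sum follows its most abundant genes, so these sums need not follow the median of the list. Sums of 12 B cell genes overlapped in LPS + LPS, at 128 to 255 CPM in Zeb1∆M against 131 to 191 CPM in Zeb1WT. They lay apart in Metformin + LPS, at 28.7 to 39.6 CPM in Zeb1∆M against 108 to 188 CPM in Zeb1WT, and in LPS, at 113 to 172 CPM in Zeb1∆M against 454 to 707 CPM in Zeb1WT. There 5 and 4 of the 11 tested were called lower in Zeb1∆M and none higher, where 4.61% and 0.937% of all genes were called lower. The T cell and NK cell list reached at most 1.90 CPM in any library, and the mesothelial and stromal list 10.3 CPM. The part of these cells in the differences of the 10 genes was not tested. Of 8 genes common to all macrophages neither edgeR nor DESeq2 called any between genotypes in LPS + LPS, and none had an unadjusted p under 0.05 (median 0.27). Without replicate 1 of Zeb1WT LPS + LPS Mertk, a receptor for the uptake of dying cells, was called higher.

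**Figure D4:**
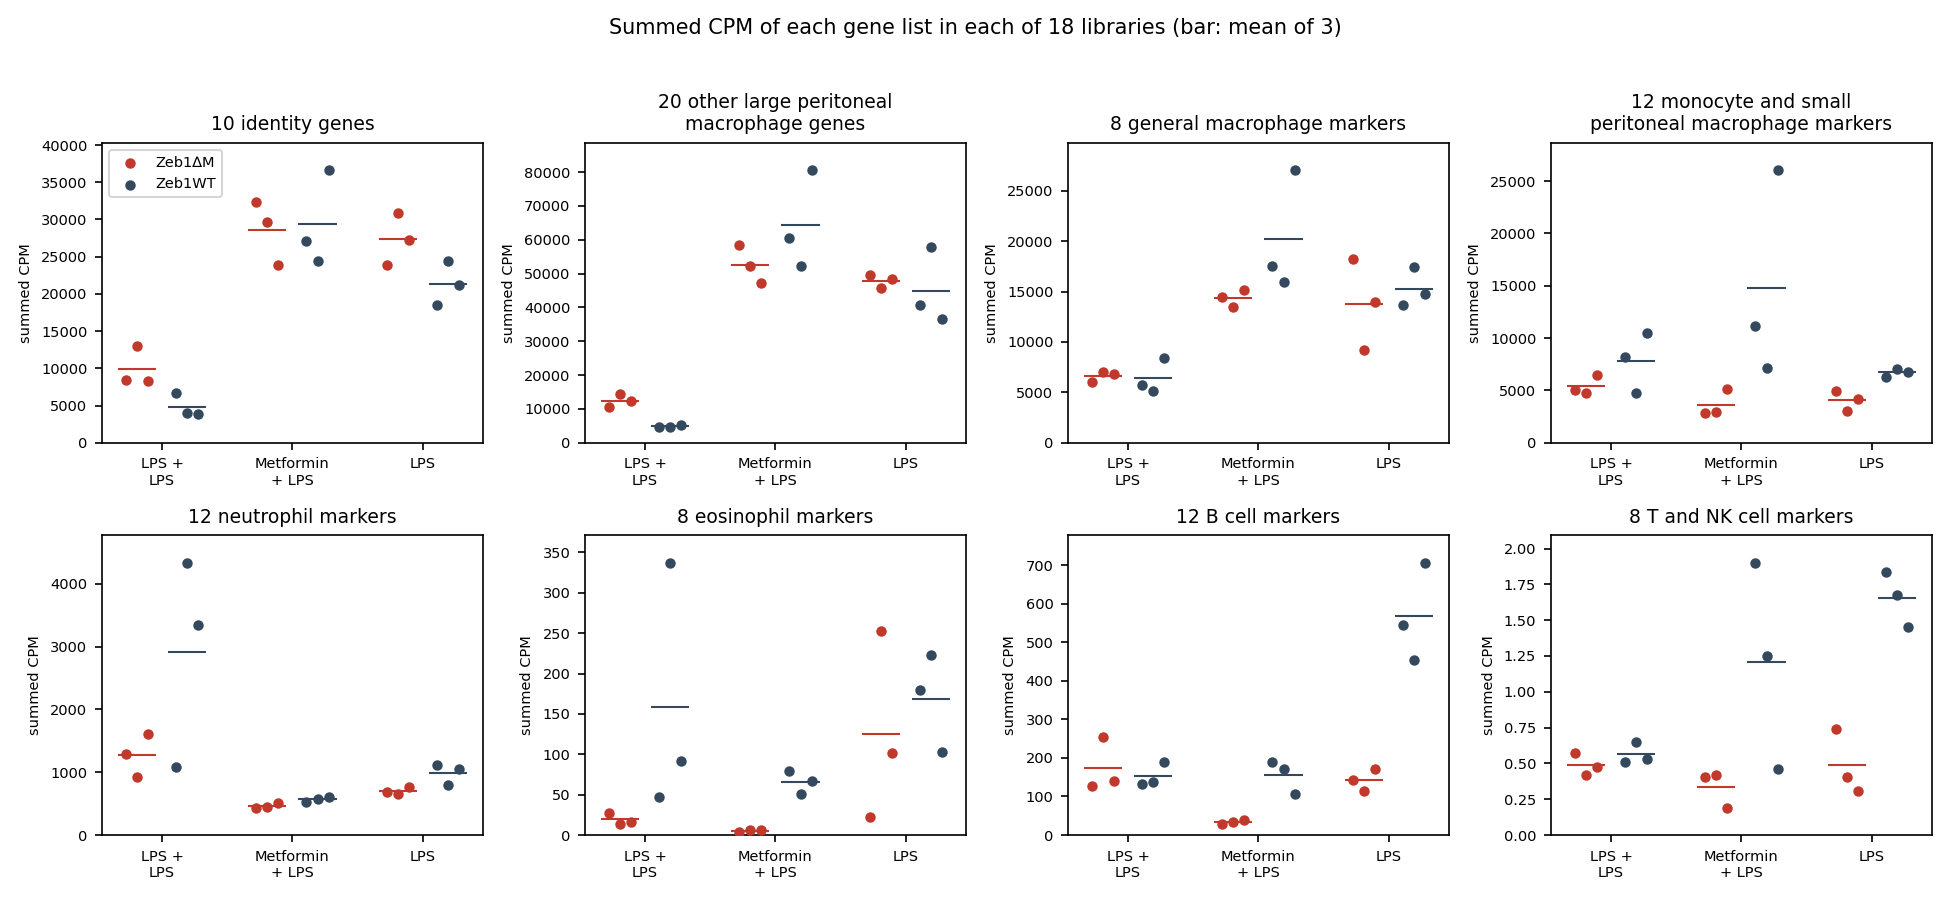
Summed level per library, in TMM-scaled CPM on linear axes from 0, of the 10 large peritoneal macrophage genes, of 20 other genes of these cells, and of marker lists for macrophages in general, monocytes and small peritoneal macrophages, neutrophils, eosinophils, B cells, and T and NK cells, by treatment and genotype (points, 3 libraries per group; bars, group means). In LPS + LPS the sum of the 10 genes is 8286 to 13051 CPM in Zeb1∆M against 3853 to 6646 CPM in Zeb1WT, and the neutrophil sum is 917 to 1615 CPM in Zeb1∆M against 1078 to 4339 CPM in Zeb1WT.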

How the data were processed

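Peritoneal macrophage RNA was sequenced (TruSeq Stranded mRNA) in 18 libraries, 3 for each of 6 groups taken from the sample labels. The deposited table holds whole-number read counts per gene, which the authors made with STAR and RSEM on GRCm38, per the labels without versions. The study used DESeq2, and its RNA-seq methods were not at hand. Genes passing edgeR's filterByExpr were fitted in 1 quasi-likelihood model over all 18 libraries (R 4.3.3, edgeR 4.0.16, TMM factors, no replicate block), with Benjamini-Hochberg adjustment over all genes tested and a threshold of 0.05. The procedure was tried on simulated counts for the genotype contrast in LPS alone, with the same spread for every gene. That trial does not cover the other contrasts. Correlations used log2 CPM with a prior count of 2. Replicates are pools of mice, so p-values measure the spread between pools. Precision is limited by 3 libraries per group.

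All 10 genes are named. Of each other list, at most the 4 genes with the smallest adjusted p per comparison could be named, and of the genes most like each of the 10 the first of 5. The 10 genes and the lists were chosen with earlier results of these data known. Every result was recomputed with DESeq2 1.42.0, with median-of-ratios factors, with the replicate number as a block, without the filter, in fits of the compared groups alone, without each library in turn and, chosen after the data had been seen, with library totals without TMM factors. Gene positions and exon lengths come from GENCODE on GRCm38, where all 10 identifiers matched with their version. Windows around start sites come from RefSeq and matched 4 of the 10.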

Additional observations from a re-analysis of the deposited data

How the results depend on the processing

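DESeq2 called 7 between genotypes in LPS + LPS (4 with edgeR on all libraries), 1 in LPS (0) and 4 for the interaction with LPS + LPS (0). Without a filter on low counts 8, 1 and 4 were called, and 1 for the interaction with Metformin (0). With only the groups compared, 0 were called between genotypes in LPS + LPS and 2 in LPS (Gata6 and Ltbp1), 6 in Metformin + LPS over LPS in Zeb1∆M (3) and 1 in Zeb1WT (3). With library totals alone, an alternative chosen after the data had been seen, 3 were called between genotypes in Metformin + LPS and 9 over all treatments (5). The cause was not tested, except that totals alone shift the median of all genes by 0.57 between genotypes in Metformin + LPS, by 0.23 over all treatments, by 0.59 in Zeb1∆M and 0.65 in Zeb1WT in LPS + LPS over LPS, by -0.22 in Zeb1∆M and -0.71 in Zeb1WT in Metformin + LPS over LPS, and by 0.48 in the interaction with Metformin. That shift turned the sign between genotypes in Metformin + LPS for Gata6 (0.50), Prg4 (0.49), Icam2 (0.29), Adgre1 (0.27), Alox15 (0.58) and Fn1 (0.59), in LPS + LPS over LPS in Zeb1WT for Gata6 (0.13) and Adgre1 (0.34), in Metformin + LPS over LPS for Prg4 (-0.69), Ltbp1 (-0.58), Timd4 (-0.59) and Alox15 (-0.16) in Zeb1WT and for Fn1 (-0.062) in Zeb1∆M, and in the interaction with Metformin for Ltbp1 (0.30), Selp (0.39), Icam2 (0.17) and Adgre1 (0.13). With median-of-ratios factors and with DESeq2, Icam2 and Adgre1 between genotypes in LPS came to -0.0088 and -0.013.

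Leaving out each library in turn, the number called ran from 3 to 6 between genotypes in LPS + LPS, from 0 to 1 in LPS and was 0 in Metformin + LPS, from 4 to 6 over all treatments, from 7 to 8 in LPS + LPS over LPS in Zeb1∆M and from 6 to 8 in Zeb1WT, from 2 to 3 in Metformin + LPS over LPS in Zeb1∆M and from 1 to 3 in Zeb1WT, and from 0 to 1 in the interaction with LPS + LPS. Some signs turned. Between genotypes in LPS, Icam2 ran from -0.11 to 0.20, Adgre1 from -0.099 to 0.22, Alox15 from -0.23 to 0.095 and Rarb from -0.21 to 0.50. Between genotypes in Metformin + LPS, Gata6 ran from -0.32 to 0.35, Alox15 from -0.15 to 0.12 and Fn1 from -0.27 to 0.24. In LPS + LPS over LPS in Zeb1WT, Gata6 ran from -1.63 to 0.40, and in the interaction with LPS + LPS from -1.17 to 0.86. In Metformin + LPS over LPS, Ltbp1 ran from -0.078 to 0.012 and Fn1 from -0.019 to 0.51 in Zeb1∆M, and Prg4 from -0.100 to 0.26 and Gata6 from -1.11 to 0.18 in Zeb1WT. In the interaction with Metformin, Alox15 ran from -0.14 to 0.24, Rarb from -0.013 to 1.56 and Selp from -0.27 to 0.087.

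Same-numbered samples of different groups did not deviate together (mean correlations of -0.0104, 0.0304 and 0.0230 for the 3 numbers), so the numbers were not treated as pairs. A replicate block gave 4 calls between genotypes in LPS + LPS, gave 4 over all treatments (5) and changed the sign of Gata6 between genotypes in Metformin + LPS (0.027). With 3 pools per group, Gata6 and Rarb, the genes with the fewest counts, were measured least precisely.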
